A study of Mus musculus with 20 samples.

Results

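Mural nuclei, those of the pericytes and smooth muscle cells that wrap small blood vessels, were singled out from single-nucleus RNA profiles of the hippocampus of 20 mice. A nucleus was a member when its summed unique molecular identifiers (UMIs, counts of captured RNA molecules) of Rgs5, Pdgfrb, Atp13a5, Abcc9 and Vtn came to 3 or more, with at least 2 of the 5 genes above 0. Members also held at most 1 UMI of the fibroblast genes Col1a2 and Slc6a13 together, at most 1 of the endothelial gene Flt1, at most 1 of the neuronal genes Gad1, Gad2, Prox1 and Fibcd1 together, and none of the glial and microglial genes Mog, Aqp4 and Csf1r. Of 160777 nuclei, 356 met this rule, or 0.221%. The members were thus selected on measured UMIs of these 15 genes. The levels of these genes in the members, and every comparison of levels between members and other nuclei, are therefore descriptions without a test. Between members and other nuclei, only the difference in response to anesthesia was tested.

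The study asked how general anesthesia changes the hippocampus of APP/PS1 mice, which carry mutant human amyloid precursor protein and presenilin transgenes that lead to amyloid deposits, and of their wild-type (WT) littermates, at 4.5 to 5.5 months of age. The labels gave 11 WT and 9 APP/PS1 mice. The wake mice, 6 WT and 3 APP/PS1, received no anesthetic. Isoflurane at 1.5% was given for 3 h to 3 WT and 4 APP/PS1 mice, and 2 mice of each genotype received ketamine at 150 mg/kg together with xylazine at 12 mg/kg for the same 3 h. In the ketamine groups the effects of ketamine and of xylazine, an alpha-2 adrenergic agonist, cannot be told apart. Each mouse gave 1 library, and mice are called here by the number in their labels.

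Pericytes lie along the capillary wall within the basement membrane that they share with endothelial cells, and platelet-derived growth factor from the endothelium holds them there through its receptor Pdgfrb. In the brain they contribute to the blood-brain barrier and to the control of capillary diameter, partly through ATP-sensitive potassium channels. Smooth muscle cells of arterioles, the other mural cells, carry a dense contractile apparatus with Acta2, Myh11 and Tagln.

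The libraries held 4743 to 10877 nuclei and 9243992 to 25394891 UMIs each. The members had a median of 882.5 UMIs against 1627 in all other nuclei, and numbered 4 to 48 a mouse. Mice 1 to 4 stood apart, with 0.939% to 1.78% of their UMIs from mitochondrial genes against 0.0353% to 0.336% in the other 16 mice. Mice 1 to 4 and mouse 10 together held 175 of the members, or 49.2%. A single member of mouse 25, an APP/PS1 ketamine mouse, carried 48356 UMIs, 75.0% of all the member UMIs of that mouse. Of 157472 distinct cell barcodes, 3251 occurred in more than 1 library, and 0 barcodes were shared by members of different libraries.

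A few genes on which the description turns are shown first by the DNA around their starts. Kcnj8, which encodes the pore of the vascular ATP-sensitive potassium channel and was not used by the rule, and Abcc9, which encodes its regulatory subunit and was used, are neighbours on chromosome 6. Kcnj8 lies at chr6:142564837-142571614 and Abcc9 at chr6:142587862-142702315 on the minus strand of GRCm38, 16247 bases apart with 0 annotated genes between them. Vtn, which encodes vitronectin, an adhesive matrix protein, lies at chr11:78499091-78502324 on the plus strand. The sequences run 5′ to 3′ on the gene's strand over chr6:142571565-142571864, chr6:142702225-142702524 and chr11:78498870-78499169, from 250 bases before the RefSeq start over the first 50 bases of the gene, and are from RefSeq (GRCm38.p6). The gene positions above are those of GENCODE, whose start is the same for Kcnj8, while the RefSeq start lies 41 bases further into the gene for Abcc9 and 29 for Vtn. Capitals mark motif matches.
Kcnj8: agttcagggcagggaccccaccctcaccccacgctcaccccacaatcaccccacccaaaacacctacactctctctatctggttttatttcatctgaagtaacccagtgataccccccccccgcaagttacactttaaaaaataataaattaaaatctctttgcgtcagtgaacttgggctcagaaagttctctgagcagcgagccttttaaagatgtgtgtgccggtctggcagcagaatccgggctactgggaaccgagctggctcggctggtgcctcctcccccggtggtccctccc
Abcc9: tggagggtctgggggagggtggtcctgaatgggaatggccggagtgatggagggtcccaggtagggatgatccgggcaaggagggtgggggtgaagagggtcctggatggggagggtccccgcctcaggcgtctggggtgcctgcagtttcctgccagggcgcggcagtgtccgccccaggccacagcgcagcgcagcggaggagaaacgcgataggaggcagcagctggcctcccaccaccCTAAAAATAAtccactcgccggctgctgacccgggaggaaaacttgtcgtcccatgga
Vtn: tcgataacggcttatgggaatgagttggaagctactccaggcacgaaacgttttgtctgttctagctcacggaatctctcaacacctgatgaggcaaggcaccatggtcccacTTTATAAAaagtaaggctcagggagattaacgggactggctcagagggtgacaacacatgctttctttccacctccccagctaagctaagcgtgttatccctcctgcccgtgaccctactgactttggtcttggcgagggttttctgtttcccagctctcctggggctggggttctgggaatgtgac
Both strands were searched for the CArG box of smooth muscle genes, TATAAA, the Notch effector site GTGGGAA, the forkhead site GTAAACA and the MEF2 site. Kcnj8 held 0 of them. Abcc9 held 1 MEF2 site, which begins 8 bases before the RefSeq start and runs across it, a motif found in 3.19% of 32851 promoters, which was added to the search after the sequences had been read. Vtn held TATAAA on both strands, as 2 overlapping matches that begin 137 and 135 bases before the RefSeq start, and 13.6% of promoters held that motif. The CArG box occurred in 1.63% of promoters, GTGGGAA in 6.38% and GTAAACA in 3.65%. G and C made up 53.3% of the Kcnj8 window, 65.7% of the Abcc9 window and 51.7% of the Vtn window, against a median of 52.7% over all promoters.

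The members were not of 1 kind. Besides mural genes, 46 nuclei carried neuronal RNA, with over 1% of their UMIs from 10 neuron genes (Kcnip4, Syt1, Grin2a and others), and 46 more carried astrocyte RNA, with 8 or more UMIs of 8 astrocyte genes (Gpc5, Slc1a2 and others). These thresholds were set after the values had been seen. The other 264 nuclei, 74.2% of the members, are called core members here. The neuron-carrying nuclei were deep, with a median of 3052.5 UMIs against 729 in core members, and held 42.2% of all member UMIs against 43.7% in the core. Doublets were not called, and the origin of the neuronal and astrocyte RNA was not tested.

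In the astrocyte-carrying nuclei Gpc5, a surface proteoglycan gene, stood at 11406 UMIs per 1000000 UMIs (CPM) against 223 CPM in the other members, and the glutamate transporter gene Slc1a2 at 8098 against 263 CPM. They met the rule mainly through Atp13a5, detected in 91.3%, and Pdgfrb, in 84.8%, while Vtn was detected in 28.3%. Of the 46, 27 sat at the lowest allowed sum of 3 UMIs and 18 had no UMI of 20 pericyte genes outside the rule. The neuron-carrying nuclei had Kcnip4, a potassium channel partner, at 10030 CPM against 212 CPM in the other members, and Epha6, an ephrin receptor, at 3917 against 89.4 CPM. There were 4 members above both thresholds, counted as neuron-carrying. A further 6 members lay within 2 UMIs of the astrocyte threshold and 8 within 0.25 percentage points of the neuron threshold.

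**Figure D1:**
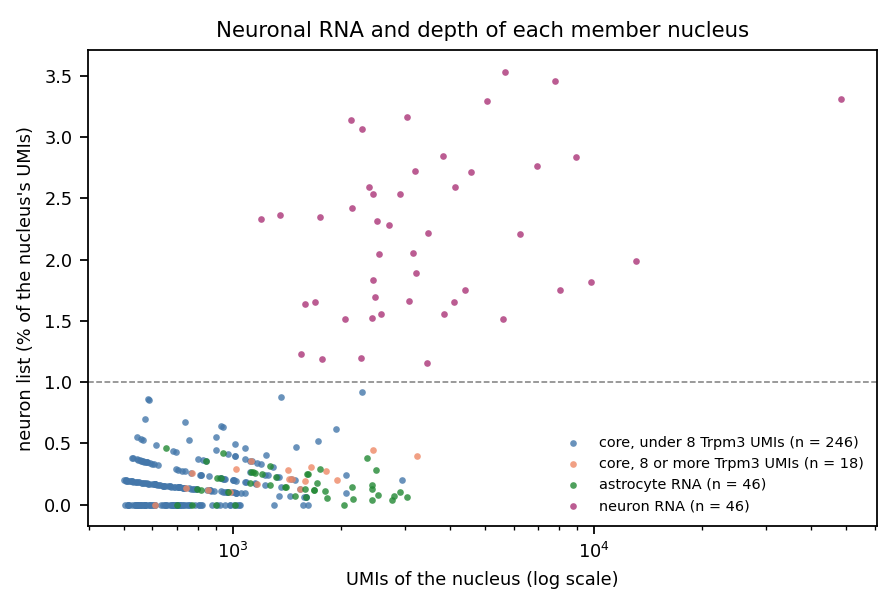
Each point is 1 of the 356 members, by its UMIs (log scale) and the percent of them from the 10-gene neuron list, coloured by subset, with the dashed line at 1%. The 46 neuron-carrying nuclei lie above the line and mostly to the right of the core members, and the farthest right, at 48356 UMIs, is from mouse 25.

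The rule has a threshold, and 78 members sat at its lowest sum of 3 UMIs, 63 at 4 and 215 at 5 or more. Just outside it, 247 nuclei that met the limits on other cell types had 2 UMIs in 2 of the genes, and 102 had 3 or more UMIs in 1 gene only. Of 869 nuclei with 3 or more UMIs in at least 2 genes, 388 exceeded the limit on Flt1, 80 that on the fibroblast genes and 123 those on neuronal, glial and microglial genes, some of them more than one.

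Core members carried pericyte genes. Vitronectin, Vtn, was detected in 87.1% of core members, Atp13a5, a P-type ATPase gene known as a brain pericyte marker, in 75.4%, the growth factor receptor gene Pdgfrb in 60.2%, the channel subunit gene Abcc9 in 39.4%, and Rgs5, a regulator of G-protein signalling, in 26.5%. In 309 nuclei gated as endothelial, with a median of 832 UMIs, the shares were 0.971% for Vtn, 0.971% for Atp13a5, 0.647% for Pdgfrb, 0 for Abcc9 and 15.5% for Rgs5. Rgs5 thus had the highest of these shares in endothelial-gated nuclei, at 121 CPM there against 556 CPM in the core and 12.4 CPM in all other nuclei. These contrasts follow partly from the rule, since endothelial-gated nuclei were allowed at most 1 UMI of the 5 genes together. Levels were not scaled to gene length, so CPM values of different genes were not ranked.

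The 20 pericyte genes that the rule did not use were all at a higher CPM in the core than in all other nuclei, with a median of 59.6-fold. Among the transcription factors, Ebf1 was at 1979 CPM in the core against 26.9 CPM in all other nuclei and Zic1 at 280 against 10.1 CPM. Among transporters and channels, Slc6a20a, a carrier of imino acids, was at 1694 against 27.4 CPM, the amino acid transporter gene Slc38a11 at 683 against 2.36 CPM, and the calcium-activated chloride channel gene Ano1 at 425 against 4.78 CPM. Among receptors, Notch3, which maintains mural cells, was at 490 against 9.77 CPM and the endothelin receptor gene Ednra at 201 against 4.47 CPM. P2ry14, a receptor for nucleotide sugars, stood out less, at 517 against 264 CPM, and was detected in 34.6% of all other nuclei against 28.8% of core members. Ebf1, at 765 CPM, was also high in endothelial-gated nuclei, and Slc6a20a, at 609 CPM, in 620 fibroblast-gated nuclei.

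Contractile smooth muscle genes were sparse. Map3k7cl was at 0, and the 14 genes together gave 141 UMIs in all members, with at most 3 in any nucleus and 2 or more in 26 nuclei. In the core, Acta2, smooth muscle actin, had 1 UMI (4.38 CPM), the actin-binding gene Tagln stood at 8.76 CPM, the smooth muscle myosin gene Myh11 at 21.9 CPM, the light chain gene Myl9 at 127 CPM and its kinase gene Mylk at 166 CPM. Of the 14 genes, 9 were higher in the core than in all other nuclei, with a median of 1.47-fold over the list. A group of arteriolar smooth muscle nuclei was thus not detected among the members, and the core is described by its pericyte genes. The rule reads pericyte markers such as Atp13a5, so smooth muscle nuclei may not have met it. Smooth muscle nuclei outside the rule were not searched for.

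**Figure D2:**
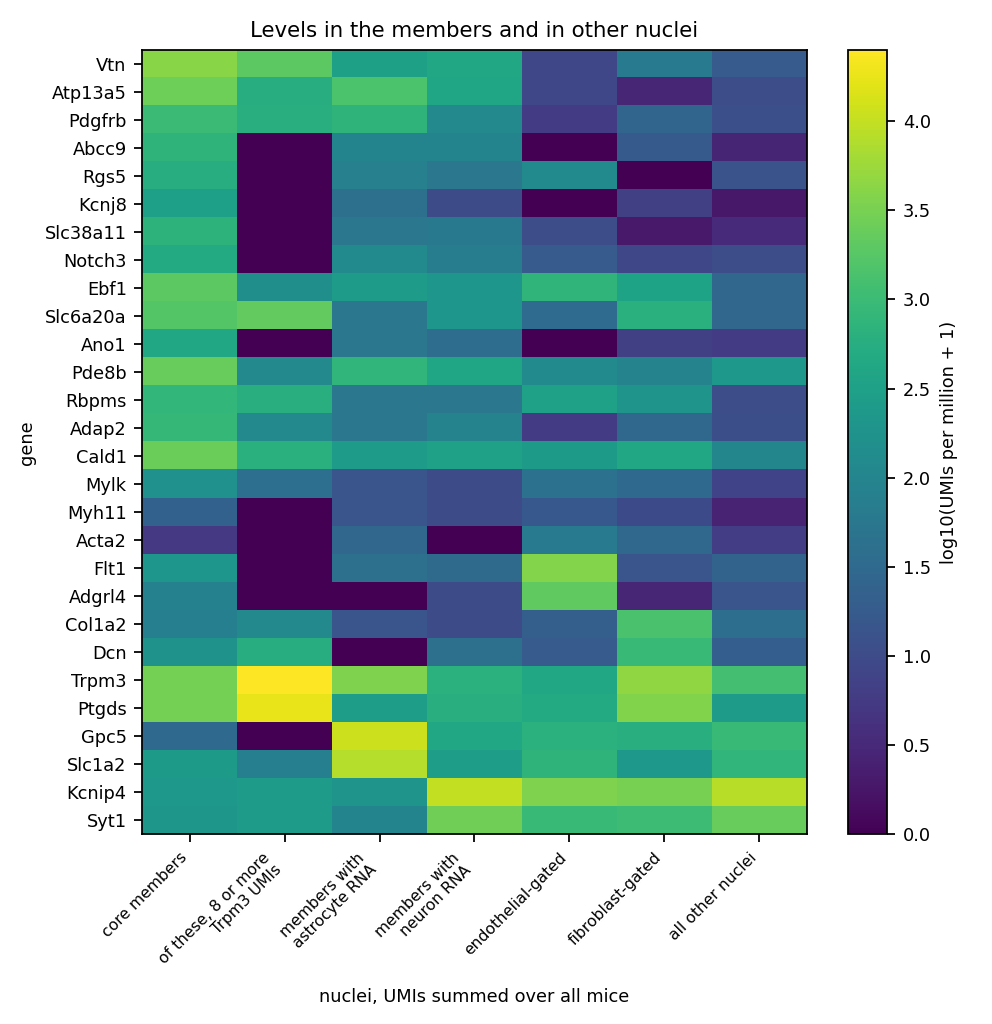
The colour gives log10(CPM + 1) of each gene, summed over all mice, in core members, in the core members with 8 or more Trpm3 UMIs, in members with astrocyte or neuronal RNA, and in endothelial-gated, fibroblast-gated and all other nuclei. Vtn, Kcnj8 and Notch3 are brightest in the core column, Acta2 and Myh11 stay dark in it, and the Trpm3 column lacks Abcc9, Rgs5, Kcnj8 and Notch3.

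Both subunits of the vascular ATP-sensitive potassium channel were detected in core members. Kcnj8 stood at 302 CPM in the core against 0.94 CPM in all other nuclei, with 69 UMIs in 55 core members (20.8%), and at 0 in endothelial-gated nuclei. Abcc9 was detected in 104 core members, and 27 had both. Among core members with an Abcc9 UMI, 26.0% also had Kcnj8, against 17.5% of those without, or 19.7% once the 18 Trpm3 nuclei described next, which had neither gene, were left out. Conversely 49.1% of core members with Kcnj8 had Abcc9, against 39.4% of all core members and 42.3% without those 18. Abcc9 is a gene of the rule, so nuclei with and without it entered through different genes, and the shares pool the nuclei of all mice. Neither these differences nor the part of depth in them was tested. The other channel pair of this family was nearly absent, as the members had 1 UMI of Kcnj11 and 6 of Abcc8, with 0 of these in the core. Of the alpha-2 adrenergic receptors, on which xylazine acts, Adra2a had 1 UMI in all members and Adra2b and Adra2c were at 0.

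Within the core, 18 nuclei from 11 mice stood apart by Trpm3, a cation channel gene, with 8 or more UMIs, a threshold also set after the values had been seen. They had 0 UMIs of Abcc9, Rgs5, Kcnj8 and Notch3, where 0 of 18 allows a share of nuclei with a UMI of up to 16.7% for each. The other 246 core members had Rgs5 in 28.5%, Abcc9 in 42.3%, Kcnj8 in 22.4% and Notch3 in 30.9%. The 18 met the rule through Vtn (83.3%) and Pdgfrb (77.8%), with Atp13a5 in 38.9%. Their leading genes were Trpm3 at 25010 CPM, the prostaglandin D synthase gene Ptgds at 18080 CPM, the adhesion gene Alcam at 3058 CPM, the cystine transporter gene Slc7a11 at 2516 CPM, the ligand gene Bmp6 at 2362 CPM and the apolipoprotein gene Apod at 1936 CPM. Ptgds, at 3627 CPM, and Apod, at 919 CPM, were also present in fibroblast-gated nuclei. Mitochondrial genes were also among their leading genes, such as mt-Co3 at 6698 against 3139 CPM in the other core members. Mice 1 to 4 gave 10 of the 18 nuclei and 99 of the other 246. Mitochondrial genes took 5.00% of UMIs in these 10 and 2.42% in those 99, but 0.224% in the 8 from other mice against 0.717% in the other 147 core members. No name is given to these nuclei. They came from all 3 states, with 9 in wake, 6 in isoflurane and 3 in ketamine mice, and 4 core members lay within 2 UMIs of the threshold.

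Signalling, matrix and transport genes were compared between the core and all other nuclei. Of all 28977 genes with a UMI, 31.7% were higher in the core, and of the 872 better detected genes that entered the tests below 51.8% (median 1.07-fold). Of 28 genes of platelet-derived growth factor, angiopoietin, TGF-beta and Notch signalling, 23 were higher in the core than in all other nuclei (median 2.98-fold), among them the Notch target genes Heyl, at 52.5 against 0.49 CPM, and Hey2, at 74.4 against 3.09 CPM. Summed over these 28 genes, the core was at 2802 CPM and endothelial-gated nuclei were higher, at 5551 CPM. All 25 basement membrane and matrix genes were higher (median 6.25-fold), including the membrane linker gene Utrn at 1453 against 68.3 CPM, the laminin gene Lama2 at 757 against 102 CPM, the collagen-binding integrin gene Itga1 at 543 against 11.2 CPM and nidogen, Nid1, at 236 against 2.60 CPM. Utrn, at 1101 CPM, was also high in endothelial-gated nuclei, and Lama2, at 520 CPM, in fibroblast-gated nuclei. Of 19 membrane transport genes, 17 were higher (median 10.3-fold), including the monocarboxylate carrier gene Slc16a12 at 499 against 5.29 CPM and the manganese exporter gene Slc30a10 at 468 against 12.1 CPM. The summed matrix genes stood at 6746 CPM in the core against 5215 CPM in endothelial-gated nuclei, and the summed transport genes at 7166 against 3850 CPM. In fibroblast-gated nuclei the sums were 4515 CPM for matrix and 2943 CPM for transport genes.

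Of 42 genes of vascular tone, 25 were higher in the core (median 1.82-fold), with a sum of 17484 CPM. The sum was 6172 CPM in endothelial-gated, 11663 CPM in fibroblast-gated and 9931 CPM in all other nuclei. Trpm3 gave 689 of the 3994 core UMIs of this list, and 646 of the 689 lay in the 18 Trpm3 nuclei. Among cyclic nucleotide genes, the phosphodiesterase gene Pde8b was at 2359 against 221 CPM, the cGMP-dependent kinase gene Prkg1 at 2591 against 870 CPM and the guanylate cyclase gene Gucy1b1 at 407 against 61.7 CPM. Genes with the highest ratio of members to other nuclei outside the rule, among those with 200 or more UMIs, included Rbpms, an RNA-binding protein gene of smooth muscle, at 805 CPM in the core against 9.86 CPM, the Arf regulator gene Adap2 at 849 against 10.2 CPM, the scavenger receptor gene Colec12 at 1344 against 18.5 CPM, the tumour suppressor gene Dlc1 at 3673 against 129 CPM and caldesmon, Cald1, at 2587 against 103 CPM. Ebf1, Rbpms, Adap2, Dlc1 and Cald1 were each higher in the members than in the other nuclei in all 20 mice. They were picked for a large ratio over these same mice, which favours such a count. Rbpms, at 323 CPM, was also present in endothelial-gated nuclei, and Colec12, at 507 CPM, in fibroblast-gated nuclei. In endothelial-gated and fibroblast-gated nuclei, Adap2 was at 5.05 and 29.8 CPM, Dlc1 at 333 and 335 CPM and Cald1 at 250 and 429 CPM.

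Of 27 immediate-early genes in the files, 22 were higher in the core than in all other nuclei (median 4.23-fold), such as Btg2 at 179 CPM, Junb at 136 CPM and Jund at 114 CPM. Of 25 glucocorticoid, clock and stress genes 18 were higher (median 2.18-fold). Of 15 hypoxia and glycolysis genes 12 were higher (median 2.22-fold), with Epas1, a hypoxia-inducible factor gene, at 241 against 21.8 CPM. Of 20 inflammation genes 17 were higher (median 5.59-fold), with the NF-kappaB pathway genes Nfkbia at 175 and Nfkb1 at 162 CPM and the chemokine gene Cxcl12 at 162 CPM. Of 12 amyloid handling genes 8 were higher (median 1.50-fold), with apolipoprotein E, Apoe, at 2022 against 1110 CPM and the protease inhibitor gene Timp3 at 499 CPM. These lists were not higher in the core than in endothelial-gated nuclei. Their sums were 1160 against 2408 CPM for the immediate-early, 2373 against 2494 CPM for the glucocorticoid, clock and stress, 810 against 2837 CPM for the hypoxia, 1243 against 2355 CPM for the inflammation and 4233 against 4385 CPM for the amyloid handling genes. Marker lists of other cells gave 11 of 12 endothelial genes higher (median 7.68-fold), 10 of 10 fibroblast genes (8.77-fold), 5 of 8 oligodendrocyte genes (1.46-fold), 6 of 8 microglia genes (1.56-fold), 2 of 8 astrocyte genes (0.473-fold) and 1 of 10 neuron genes (0.095-fold). Flt1, limited by the rule to 1 UMI a nucleus, stood at 206 CPM in the core against 3769 CPM in endothelial-gated nuclei. The endothelial and fibroblast UMIs were spread unevenly over the core. Of 182 endothelial list UMIs, 1 core member of mouse 10 held 18, and of 330 fibroblast list UMIs, 1 of mouse 28 held 29. Core members with such RNA were not set apart.

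No difference in the share of mural nuclei between awake and anesthetized mice was detected. In awake WT mice the share ran from 0.0960% to 0.528% with a median of 0.204%, and the 3 awake APP/PS1 mice had 0.422%, 0.454% and 0.105%. Under isoflurane it was 0.351%, 0.161% and 0.117% in WT and 0.520%, 0.141%, 0.124% and 0.147% in APP/PS1 mice. Under ketamine it was 0.0780% and 0.195% in WT and 0.243% and 0.0447% in APP/PS1 mice. The ranges of the 3 states overlapped. In mouse 1, the highest, the exact 95% binomial interval ran from 0.378% to 0.718%, which covers counting error only.

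The mean share was 0.272% ± 0.167 (SD, n = 9) in wake, 0.223% ± 0.154 (n = 7) in isoflurane and 0.140% ± 0.0940 (n = 4) in ketamine mice. The difference averaged over genotypes was -0.0644 percentage points for isoflurane minus wake (two-sided exact permutation test within genotype, p = 0.464, adjusted p = 0.547, 16 mice). It was -0.146 points for ketamine minus wake (exact permutation p = 0.175, adjusted p = 0.525, 13 mice, smallest possible p 0.00357). The genotype difference, APP/PS1 minus WT over wake and isoflurane, was 0.0528 points (exact permutation p = 0.547, adjusted p = 0.547, 16 mice), and -0.0424 points without mice 1 to 4 and 10. Benjamini-Hochberg adjustment was over these 3 comparisons. In a share of nuclei, fewer mural cells and less RNA per mural nucleus cannot be told apart, since less RNA lets fewer nuclei reach 3 UMIs.

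The highest shares came from mice 1 to 4 and 10, at 0.351% or more, against 0.330% or less in the other 15 mice. Without these 5 mice, isoflurane minus wake was -0.00833 points and ketamine minus wake -0.00634 points. No test is given, since the mice were picked by their shares and only mouse 17 was left among awake APP/PS1 mice. Mice 1, 2 and 10 of the 5 were awake, so leaving them out lowers the wake mean. The study's methods describe tissue handled in batches with mice of each group, but the sources used here do not give the batch of a mouse. The runs of mice 1 to 4 and 14 to 17 each held 1 mouse of every wake and isoflurane group. Within runs of neighbouring mouse numbers, isoflurane minus wake was -0.0392 points in mice 1 to 4, -0.0999 in 10 to 13, -0.0280 in 14 to 17 and 0.0260 in 18 to 20. Ketamine mice occurred only among mice 25 to 29, with a single awake mouse, and ketamine minus wake there was -0.190 points. The share of core members alone was 0.210% ± 0.162 (SD, n = 9) in wake, 0.165% ± 0.129 (n = 7) in isoflurane and 0.105% ± 0.0689 (n = 4) in ketamine mice.

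**Figure D3:**
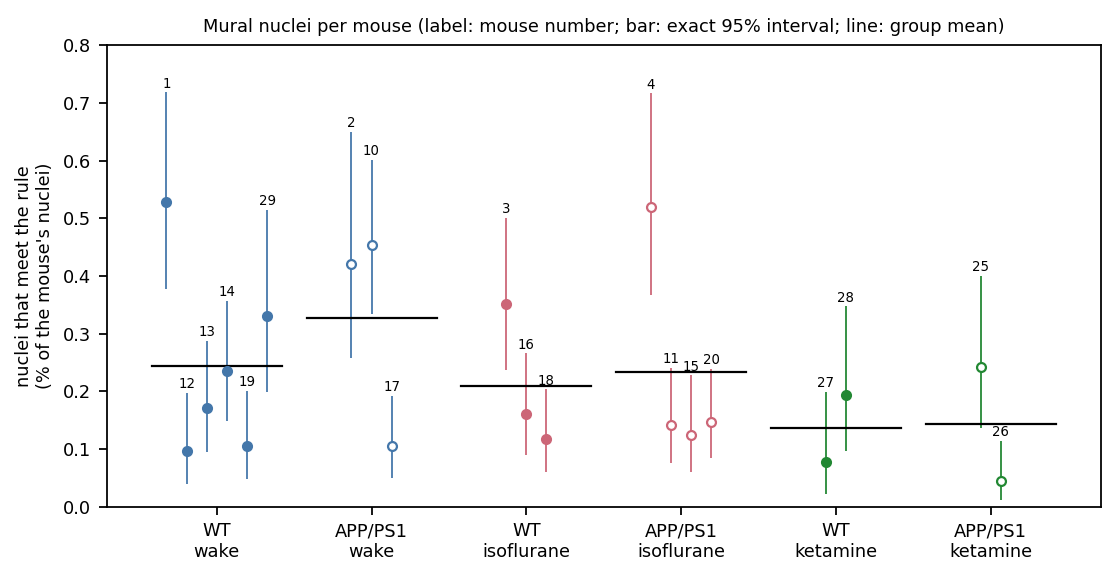
Each point is the percent of 1 mouse's nuclei that met the rule, with its exact 95% interval and mouse number, and horizontal lines are group means (filled WT, open APP/PS1). Mice 1, 2, 3, 4 and 10 lie at 0.351% or above, in 4 of the 6 groups, and the groups overlap.

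For expression, the UMIs of all members of a mouse were summed, and the 16 mice with 10 or more members were compared with edgeR's quasi-likelihood test. Of 872 genes that passed the filter on low counts, isoflurane against wake called 2 at an adjusted p under 0.05, or 0.229% of those tested, 1 higher and 1 lower, and 109 had an unadjusted p under 0.05. Filip1l, named for its likeness to a filamin-interacting protein, rose under isoflurane, and Tafa1, a gene for a secreted protein of the brain, fell.

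Filip1l was at 497, 474, 444, 460, 259, 294 and 721 CPM in isoflurane mice 3, 4, 11, 15, 16, 18 and 20, with 81 UMIs in all, and at 0 to 247 CPM, median 171 CPM, in the 9 awake mice, with 33 UMIs. Every isoflurane mouse was above every awake mouse, but Filip1l was picked for its small p, which favours such a separation. How many of the 872 genes separated as fully was not counted. The 4 ketamine mice, at 77.5, 259, 0 and 213 CPM, were in or near the range of the awake mice. These values rest on 10 UMIs in all, too few to place the level under ketamine. In mouse 25 a single nucleus held 75.0% of the member UMIs. The log2 fold change of isoflurane against wake was 1.75 ± 0.36 (SE; edgeR adjusted p = 0.0472), and 0.27 in all other nuclei of the same mice (adjusted p = 0.667). Of the 81 isoflurane UMIs of Filip1l, 75 were in core members. There isoflurane mice had 561 to 1955 CPM and awake mice 0 to 425 CPM, again without overlap. Awake mice 12 and 19 had only 2 and 4 core members.

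The Filip1l call was a narrow one. It was made in 11 of 26 alternative fits, over which its log2 fold change ran from 1.39 to 2.06 and its adjusted p (edgeR, or DESeq2 in 1 of them) from 0.0224 to 0.535. Without members that carried glial or neuronal RNA, here those with 3 or more UMIs of the glial and microglial lists or over 2% of their UMIs from the neuron list, the log2 fold change was 2.06 (edgeR adjusted p = 0.0224), without mice 1 to 4 it was 1.39 (adjusted p = 0.445), and with the runs of mouse numbers as blocks 1.63 (adjusted p = 0.0978). The difference between mural and all other nuclei in the response to isoflurane was 1.50 ± 0.45 for Filip1l (adjusted p = 0.177). The gene lies at chr16:57353093-57573126 on the plus strand of GRCm38, wholly inside Cmss1 (chr16:57302000-57606864) on the minus strand, and whether the counting used strand is not given in the sources used here.

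Tafa1 ran from 243 to 2049 CPM in awake mice, median 897 CPM, with 219 UMIs, and from 33.1 to 540 CPM, median 118 CPM, in isoflurane mice, with 30 UMIs. The ranges of the states overlapped. Its log2 fold change was -2.50 ± 0.47 (SE; edgeR adjusted p = 0.0305), and -0.17 in all other nuclei (adjusted p = 0.601). The difference between these responses was -2.47 ± 0.45 (adjusted p = 0.0124). Tafa1 was called in 18 of 26 alternative fits, and in 9 of the 16 that left out 1 mouse. Over the 26 its log2 fold change ran from -4.34 to -2.17, with an adjusted p (edgeR, or DESeq2 in 1 of them) up to 0.787. The difference between the responses was called in 16 of 18 alternatives. Core members held 9 of the 219 awake and 2 of the 30 isoflurane UMIs of Tafa1. In all other nuclei of these mice Tafa1 stood at 736 to 2022 CPM. Neuron-carrying nuclei were 14.3% of the members in awake, 10.5% in isoflurane and 14.7% in ketamine mice. These are shares of nuclei, while the fit sums UMIs, of which neuron-carrying nuclei held 42.2% over all mice. The neuron list took a mean of 1.17% of a mouse's member UMIs in awake, 0.858% in isoflurane and 1.02% in ketamine mice. Tafa1 no longer passed the filter on low counts once the members with glial or neuronal RNA were left out.

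Samd4, a gene for an RNA-binding translational repressor, was at 207 to 588 CPM in isoflurane mice, median 230 CPM. In awake mice it was at 0 to 162 CPM, median 45.9 CPM, without overlap. These values rest on 52 isoflurane and 19 awake UMIs, and Samd4 was also picked for its small p. It was not called in mural nuclei alone (2.34 ± 0.55 SE, edgeR adjusted p = 0.0945), but its response to isoflurane differed from that of all other nuclei by 2.54 ± 0.53 on the log2 scale (adjusted p = 0.0351). That difference was called in 7 of 18 alternatives, with an adjusted p from 0.0107 to 0.835. Ketamine mice 25 to 28 had 62.0, 130, 808 and 496 CPM, with 15 UMIs in all. In core members the states overlapped, at 140 to 1530 CPM in isoflurane and 0 to 755 CPM in awake mice. The test of the difference in response also called 2 of 872 genes (0.229%), Samd4 and Tafa1, with 119 at an unadjusted p under 0.05. Against endothelial-gated in place of all other nuclei it called 0 genes, and without mice 1 to 4 also 0.

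Other genes with small p under isoflurane were not called. Hdac8, a histone deacetylase gene, differed by 1.64 ± 0.39 (edgeR adjusted p = 0.0945) and the glutamate receptor gene Grm5 by -1.04 ± 0.30 (adjusted p = 0.195). Of their UMIs, most lay outside the core. For Hdac8 these were 84 of 101 in isoflurane and 38 of 46 in awake mice, and for Grm5 101 of 114 and 319 of 333.

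**Figure D4:**
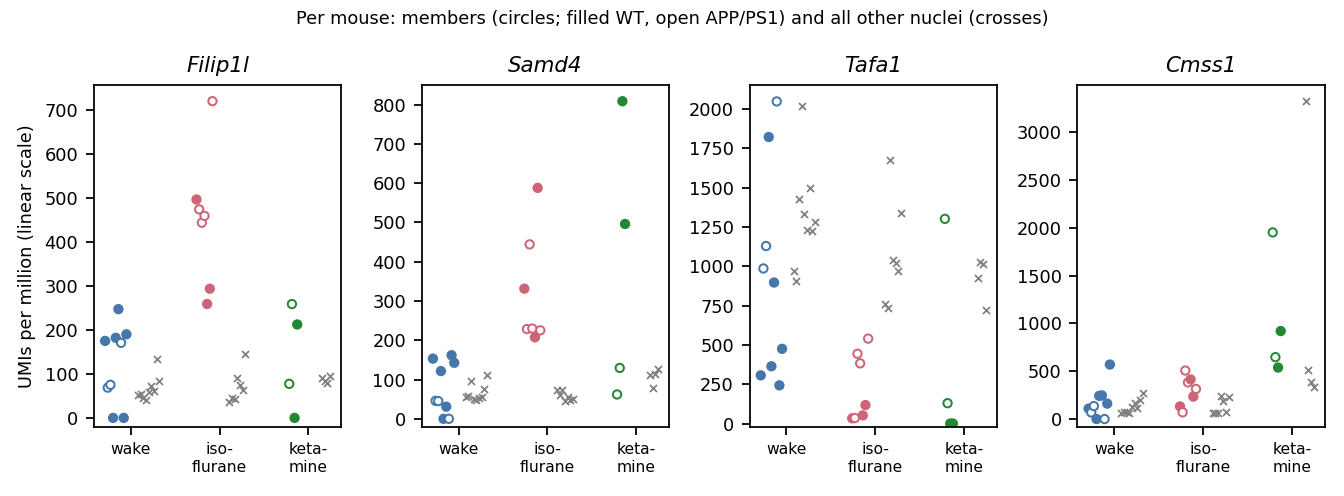
Circles are members and crosses all other nuclei of the same mice, in CPM on linear axes, filled for WT and open for APP/PS1 mice. For Filip1l and Samd4 the 7 isoflurane mice lie above the 9 awake mice, and Tafa1 is lower under isoflurane with overlap. In other nuclei Cmss1 is above the awake mice in all 4 ketamine mice, while in members mouse 27 lies within the awake range.

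The genes of the rule, given as values without a test, had overlapping ranges in awake and isoflurane mice. Vtn was at 608 to 3992 CPM, median 2306 CPM, in awake and at 444 to 5499 CPM, median 1685 CPM, in isoflurane mice (log2 fold change -0.10 ± 0.46 SE). Atp13a5 was at 1331 to 3330 CPM in awake and 720 to 2644 CPM in isoflurane mice (-0.20 ± 0.30). Pdgfrb was at 324 to 963 CPM and 470 to 994 CPM (0.10 ± 0.32). Abcc9 was at 155 to 728 CPM and 311 to 843 CPM (0.50 ± 0.35). Rgs5 was at 171 to 723 CPM and 63.4 to 497 CPM (-0.77 ± 0.42). Kcnj8, with 41 UMIs in awake and 29 in isoflurane mice, was at 0 to 344 CPM and 0 to 364 CPM.

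Of the lists, none had a member called in any comparison. Of the 20 pericyte genes outside the rule, 7 passed the filter, of which 1 was above and 6 below 0 under isoflurane, with a median log2 fold change of -0.39 beside -0.03 over all 872 genes. Farthest from 0 were the endothelin receptor gene Ednra, at 1.41 ± 0.79 (edgeR adjusted p = 0.495), and Slc38a11, at -1.22 ± 0.51 (adjusted p = 0.370). Of 42 vascular tone genes 21 were tested (median -0.06). Of the 25 matrix genes 8 were tested (median 0.32), of the 19 transport genes 8 (median -0.01) and of the 3 tested growth factor and Notch pathway genes the median was -0.17. The protease inhibitor gene Timp3 differed by 1.67 ± 0.55 (adjusted p = 0.290). Of the neuron list 8 genes were tested, all below 0 (median -0.47), and 3 astrocyte genes, all above 0 (median 0.85), which moved beside the shares of neuron-carrying and astrocyte-carrying nuclei, the latter 10.6% of members in awake and 16.5% in isoflurane mice. Without the members that carried glial or neuronal RNA by the limits given for Filip1l, 2 of 250 genes were called for isoflurane against wake, Filip1l and 1 lower gene, and Grm5 was at 0.61 (edgeR adjusted p = 0.935). No gene of the contractile, immediate-early or hypoxia lists passed the filter.

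**Figure D5:**
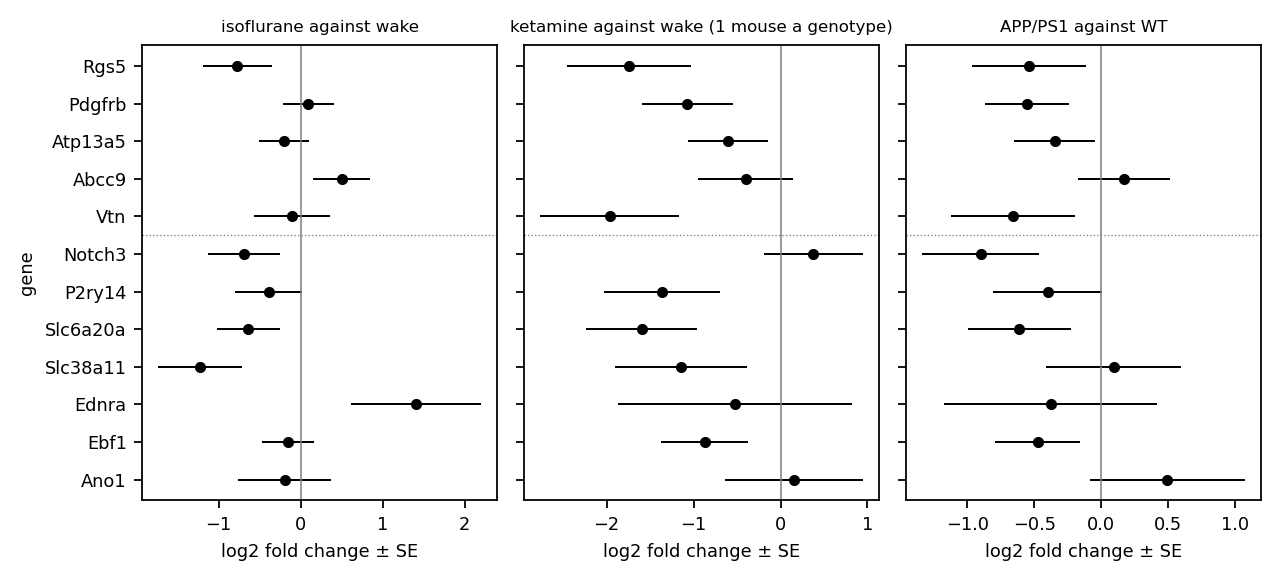
Points are log2 fold changes with SE bars from the edgeR fit in members for the 5 rule genes (above the dotted line) and 7 pericyte genes outside the rule, for isoflurane against wake, ketamine against wake (1 mouse a genotype) and APP/PS1 against WT. The 5 rule genes are shown as values without a test, none of the 7 other genes was called, and the bars are widest for ketamine.

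Ketamine was compared through 1 mouse of each genotype, mouse 25 and mouse 28, because mice 26 and 27 had 4 members each, and the fit assumes that they vary like the other groups. Of 872 genes 1 was called against wake (0.115%), Cmss1, and 77 had an unadjusted p under 0.05. Cmss1 was at 1953, 648, 539 and 921 CPM in ketamine mice 25 to 28, and at 0 to 571 CPM, median 136 CPM, in awake mice. Of the 4, mice 25, 26 and 28 were above every awake mouse. The log2 fold change was 3.09 ± 0.56 (SE; edgeR adjusted p = 0.0165). In all other nuclei it was 3.22 (adjusted p = 0.0261), with 3326, 518, 390 and 340 CPM in mice 25 to 28 against 62.4 to 276 CPM in awake mice, so Cmss1 rose there too. In a fit that took the runs of mouse numbers as blocks, Cmss1 was at 1.93 (adjusted p = 0.534). Only 1 awake mouse belongs to the run of the ketamine mice, so state and run can hardly be told apart.

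Another RNA was high beside Cmss1 in the ketamine libraries. Gm42418, a gene that overlaps rRNA sequence, was at 1744 to 13893 CPM in all other nuclei of ketamine mice and at 401 to 1623 CPM in those of awake mice, and in members at 1488 to 10779 CPM and 425 to 2831 CPM. The part of this in the Cmss1 difference was not tested.

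Against wake, ketamine gave median log2 fold changes of -1.07 over the 5 rule genes and -0.87 over the 7 tested pericyte genes outside the rule, beside -0.14 over all genes. These medians rest on the neuron-carrying nucleus with 48356 UMIs, which made up 75.0% of the sum of mouse 25. Without it they were -0.16 over the rule genes, of which 2 were above and 3 below 0, and -0.03 over the 6 pericyte genes then tested, beside -0.24 over all genes. Summed, the rule genes were at 1333, 1684, 5659 and 4818 CPM in mice 25 to 28 against 3719 to 6831 CPM in awake mice, and mouse 25 was at 4891 CPM without that nucleus, leaving mouse 26, with 13 UMIs, as the low one. The 20 pericyte genes outside the rule were at 1411, 2720, 6198 and 4463 CPM against 2309 to 7093 CPM, and mouse 25 was at 5139 CPM without it. In mice 25 to 28 together, Vtn was at 310 to 1617 CPM against 608 to 3992 CPM in awake mice (log2 fold change in mice 25 and 28 -1.97 ± 0.80), and in core members at 579 to 2242 CPM against 1888 to 7012 CPM. Rgs5 was at 46.5 to 269 CPM against 171 to 723 CPM (-1.74 ± 0.71). The ranges overlapped for both genes. Without the largest nucleus mouse 25 was at 1238 in place of 310 CPM for Vtn and at 124 in place of 46.5 CPM for Rgs5, both below the APP/PS1 wake means of 2396 and 397 CPM. Pdgfrb went from 202 to 681 CPM, Abcc9 from 186 to 681 CPM and Atp13a5 from 589 to 2167 CPM, each then above the wake means of 497, 422 and 2015 CPM. Genes outside the rule with the smallest p were Slc4a10 (2.15 ± 0.59), Neat1 (1.75 ± 0.52), Ptprk (-1.67 ± 0.44), Rbpms (-2.17 ± 0.60) and Adap2 (-2.17 ± 0.64), each with an edgeR adjusted p of 0.380. Without the largest nucleus they were at 1.77, 2.79, -0.80, -1.16 and -1.15, and Neat1, a long non-coding RNA of nuclear paraspeckles, was then called (adjusted p = 0.0106), as was Cmss1 (4.07, adjusted p = 0.000356).

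Ketamine against isoflurane called 0 genes with edgeR, 0% of 872, with 124 at an unadjusted p under 0.05, and DESeq2 also called 0. The smallest p were those of Mir100hg (-4.32 ± 1.05), Slc4a10 (2.57 ± 0.63) and Cmss1 (2.37 ± 0.55), with an adjusted p of 0.160 each. The Mir100hg value rests on mice 25 and 28, at 217 and 0 CPM, while mice 26 and 27, outside the fit, were at 777 and 1078 CPM, and isoflurane mice at 153 to 946 CPM. It ran from -4.61 to -0.98 over 22 alternatives, the latter with all 20 mice (adjusted p = 0.464). The difference in the response to ketamine between mural and all other nuclei was called for 0 genes by edgeR (0%), with 76 at an unadjusted p under 0.05. There, Ptprk differed by -1.96 ± 0.43 (adjusted p = 0.107) and Ebf1 by -3.53 ± 0.86 (adjusted p = 0.173). Both values rest on ketamine mice 25 and 28, and this test was not run without the largest nucleus of mouse 25. Over 16 alternatives Ptprk ran from -2.04 to -0.19 and Ebf1 from -4.13 to -0.61, with the values nearest 0 against endothelial-gated nuclei.

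APP/PS1 against WT, over wake and isoflurane mice, called 0 genes with edgeR (0% of 872), with 77 at an unadjusted p under 0.05, while DESeq2 called 1. The smallest p among genes higher in APP/PS1 mice were those of Prkcb (1.40 ± 0.38), Celf2 (1.09 ± 0.30) and Tafa1 (1.71 ± 0.48), which neurons express, each with an adjusted p of 0.334. Among genes lower in APP/PS1 mice they were Hspa4 (-1.75 ± 0.62, adjusted p = 0.334), Dock1 (-1.37 ± 0.51, adjusted p = 0.344) and Wdr17 (-1.18 ± 0.45, adjusted p = 0.379). Wdr17 was a leading gene of the astrocyte-carrying members, at 2940 CPM there against 134 CPM in the other members, and 118 of its 121 isoflurane and 119 of its 123 awake UMIs lay outside the core. The 3 tested astrocyte genes were all below 0 (median -1.0). The 8 tested neuron genes had a median of 0.66 and the 7 tested pericyte genes outside the rule -0.40, beside -0.05 over all genes. Notch3 differed by -0.90 ± 0.44 (adjusted p = 0.547) and Apoe by -0.76 ± 0.53 (adjusted p = 0.691). Of the rule genes, Vtn differed by -0.66 ± 0.46 and Pdgfrb by -0.56 ± 0.32, given without a test.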

How the data were processed

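Nuclei of the hippocampus of 20 mice were profiled with droplet single-nucleus RNA sequencing. The authors deposited raw UMI counts per gene and nucleus, 1 matrix per mouse, made with Cell Ranger 5.0.0 on the mouse genome mm10 per the submitters' processing notes, with intronic reads included per the study's methods. The methods also name CellBender, which removes free RNA, but the sources used here do not say whether the deposited counts had passed through it. All deposited nuclei entered, with no further filter on nuclei or doublets. The shallowest member held 500 UMIs, while the study's methods name only a limit of 200 detected genes. Whether a lower limit on UMIs had cut the mural nuclei was not tested. Groups came from the labels, and nothing says that a mouse gave more than 1 library. The number of mice per group in the series text differs from that in the labels, which were used.

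The members, gene lists and named genes were chosen with earlier results of these data known. CPM are UMIs per 1000000 UMIs of the nuclei summed. Member counts were summed per mouse and tested in mice with 10 or more members, whose sums held 11711 to 66407 UMIs. The tool was edgeR 4.0.16 (R 4.3.3) with TMM scaling, its own filter on low counts and its quasi-likelihood test, and p-values were adjusted over all genes tested (Benjamini-Hochberg), with calls at 0.05. The 6 groups of genotype and state shared 1 estimate of spread (biological coefficient of variation 0.479, 10 residual degrees of freedom). In ketamine groups of 1 mouse the fold change has no spread of its own. The test of a difference between mural and other nuclei used 2 sums per mouse, with the mouse as a block. Nuclei were not used as replicates. Shares were compared by exact permutation over mice, with all arrangements enumerated, and the exact binomial intervals came from scipy 1.17.1. Wake, a group of 9 mice, is shared by the isoflurane and ketamine comparisons. DESeq2 1.42.0 was an alternative. Scripts were tested on simulated data.

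Genes were named by a rule, namely the 5 genes that chose the nuclei, the 3 list members with the most UMIs and any member called, the 3 to 5 genes of smallest p in each direction of a comparison, the 15 genes of largest ratio to other nuclei with 200 or more UMIs, and the potassium channel and alpha-2 receptor genes. Further list members named for their level, the subsets of members, and the genes Ptgds, Alcam, Bmp6, Slc7a11, Apod, Epha6 and Gm42418 were chosen after their values were seen. Positions are from GENCODE vM21 (GRCm38). The promoter table held 4 of the 5 rule genes. Some genes that the naming rule picks are not reported here.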

Additional observations from a re-analysis of the deposited data

Results flagged for a closer look

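In groups of 4 to 10 mice, a mouse far from the others was looked for in 20 sets of values, of which chance picks out about 1 in 20. The share of mural nuclei in mouse 4, an APP/PS1 isoflurane mouse, was 0.520%, and the next highest of its group had 0.147%. Filip1l in mural nuclei of APP/PS1 isoflurane mouse 20 was at 721 CPM, with the next at 474 CPM. Samd4 in APP/PS1 isoflurane mouse 11 was at 444 CPM, with the next at 230 CPM.

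For Atp13a5, ketamine minus wake was 246 CPM in WT and -1527 CPM in APP/PS1 mice, a difference between genotypes of -1773 CPM, with both WT ketamine mice above and both APP/PS1 ketamine mice below the wake mean of their genotype. This difference was not tested, rests on 2 ketamine mice a genotype and concerns a gene that the rule itself reads. Without the member of 48356 UMIs, mouse 25 moved from 589 to 2167 CPM (35 UMIs of 16151), above the APP/PS1 wake mean of 2015 CPM, so that only mouse 26, with 3 UMIs (389 CPM), stayed below it. The difference between genotypes was then -984 CPM.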

How the results depend on the processing

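Each mouse has a number of its own, which no other group shares, so the numbers themselves pair no samples, and runs of neighbouring mouse numbers were fitted as blocks. The counts of called genes, 2 for isoflurane against wake, 1 for ketamine against wake, 0 for ketamine against isoflurane and 0 for genotype, were small enough that most alternatives moved at least one. A stricter rule of 5 or more UMIs in 3 genes gave 0 for isoflurane and 0 for ketamine against wake, with 425 genes tested. Without a filter on low counts, with 16543 genes tested, they were 4 and 4, and 10 for ketamine against isoflurane. A minimum count of 3 gave 1 for isoflurane. Blocks for runs of mouse numbers gave 1 for isoflurane and 0 for ketamine against wake. Without mice 1 to 4 there were 1 for ketamine against isoflurane and 5 for genotype, 601 genes being tested. Mice with at least 20 members, which left 1 isoflurane mouse a genotype, gave 27 for isoflurane against wake (7 higher, 20 lower, 2 shared with the reported calls) and no ketamine value. Without the largest nucleus, an alternative added after seeing the data, ketamine gave 2 against wake and 1 against isoflurane. DESeq2 gave 4 for isoflurane and 1 of 230 genes with an adjusted p for genotype. The test of the difference in response to isoflurane gave 0 against endothelial-gated nuclei and 0 without mice 1 to 4. With 1 mouse left out at a time the counts ran from 0 to 4 for isoflurane against wake (0 without mouse 2, 3, 10, 13, 14, 16 or 17, and 4 without mouse 29), from 0 to 1 for ketamine against wake (0 without mouse 2 or 14), from 0 to 1 for ketamine against isoflurane (1 without mouse 15), from 1 to 5 for the isoflurane difference (5 without mouse 17) and from 0 to 2 for the ketamine difference (2 without mouse 10), and were 0 for genotype. Leaving out mouse 25 or 28 gave no ketamine value.

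The share differences for isoflurane and for ketamine stayed below 0 in all alternatives run. They came to -0.00833 and -0.00634 points without mice 1 to 4 and 10, a choice made by the high shares of these mice. With 1 mouse left out at a time they ran from -0.120 to -0.0326 and from -0.201 to -0.0961. The genotype difference of 0.0528 points turned to -0.0171 without members that carried glial or neuronal RNA, to -0.140 as a percent of members plus endothelial-gated nuclei and to -0.0424 without mice 1 to 4 and 10, the last added after seeing the data, and the cause was not tested. With 1 mouse left out at a time it ran from 0.00494 to 0.108. Depth limits these results, as the member sums tested held a median of 21617.5 UMIs a mouse and let 872 genes be tested.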
